A study of Mus musculus with 2 samples.

Results

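The Notch pathway and the marginal zone fate that it directs were followed through 8 genes in wild-type mouse splenic B cells. The genes were Notch1, Notch2, Adam10, Rbpj, Maml1, Hes1, Dtx1 and Cd1d1. Every probe set that the platform annotation assigned to exactly 1 of these symbols was taken, which gave 15 probe sets of 22626 on the array and 8 genes of the 12393 that were named by a probe set of their own. All 8 genes, chosen with these signals known, had at least 1 probe set whose signal exceeded a background floor in both samples, where 32.1% of all genes did. The count was 5 with a stricter floor, which 20.1% of all genes passed. It was 4 when the probe sets of a gene were averaged, which left 22.5% of all genes. Gene expression was measured on 2 arrays, each of RNA from IgM+IgD+ cells sorted by flow cytometry from spleen, with no genetic modification per their labels. The series sets such cells against SRF-deficient ones (SRF is serum response factor), and those arrays were not analysed here, so values are given on both wild-type arrays and no genotypes are compared. Strain, age and sex of the mice, and whether different mice or sorts gave the 2 samples, are not given in the sources used here. Replicates 1 and 2 are names in accession order.

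Notch receptors are surface proteins that are cut when they bind a ligand on a neighbouring cell. The protease ADAM10 makes the outer cut, and gamma-secretase then frees the intracellular domain, which joins the DNA-binding protein RBPJ and a Mastermind-like coactivator in the nucleus and switches on genes such as Hes1 and Dtx1. In the spleen, NOTCH2 and its ligand DLL1 on stromal cells are required for marginal zone B cells, which guard the blood-filled rim of the follicle and carry much CD1d, while follicular B cells recirculate. A sort for IgM and IgD can hold both kinds of cell, in shares that need not be equal and were not measured here. In a bulk sample fewer cells of a kind and less RNA per cell cannot be told apart.

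The signals are MAS5 intensities on a linear scale. MAS5 condenses the probes of a probe set to a single signal, and the deposited arrays were scaled to a common trimmed mean. A probe set was called detected in a sample where its signal exceeded a floor, the 90th percentile of 100 probe sets of 62 organ-restricted genes of, for example, liver, brain and testis. The floor was 153 in replicate 1 and 93.8 in replicate 2. By this construction 10 of those 100 probe sets were detected in each sample, and 4 of the 62 genes were detected in both. The spread between the samples, pooled over all probe sets detected in both, was an SD of 0.65 in log2 signal (1.57-fold). Over all gene probe sets the Pearson correlation of log2 signal between the samples was 0.63. With 2 samples of 1 group there was no test, and precision is limited by their number. The ratio of 3′ to 5′ signal of Actb, a sign of RNA quality and of labelling, was 3.57 in replicate 1 and 8.15 in replicate 2. For Gapdh it was 1.31 and at least 8.79, with a 5′ signal below the floor in replicate 2. The part of RNA quality in the differences below was not tested.

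The sequences before the starts of 3 genes of the pathway follow, chosen because they show where the letters bound by RBPJ do and do not stand: Rbpj itself, the Notch-induced gene Dtx1, and Hes5, a classical Notch target. RBPJ binds a core of TGGGAA, in longer form GTGGGAA, and each was searched on both strands in the RefSeq start windows of build GRCm38.p6, which run from 250 bases before a start to 50 after it (300 bases). The longer form contains the core. The capitals mark the core or its reverse complement. Each line holds the 250 bases before the start, 5′ to 3′ on the strand of the gene.
Rbpj, chr5:53590096-53590345, plus strand: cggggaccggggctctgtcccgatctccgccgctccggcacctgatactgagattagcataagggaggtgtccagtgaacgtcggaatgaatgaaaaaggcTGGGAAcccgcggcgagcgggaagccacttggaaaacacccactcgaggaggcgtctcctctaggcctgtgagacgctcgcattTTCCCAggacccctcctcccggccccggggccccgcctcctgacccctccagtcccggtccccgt
Dtx1, chr5:120711670-120711919, minus strand: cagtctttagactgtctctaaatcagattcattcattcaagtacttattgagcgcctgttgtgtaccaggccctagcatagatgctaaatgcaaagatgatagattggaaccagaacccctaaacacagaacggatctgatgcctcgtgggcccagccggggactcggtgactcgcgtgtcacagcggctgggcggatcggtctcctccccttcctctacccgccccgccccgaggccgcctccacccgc
Hes5, chr4:154960673-154960922, plus strand: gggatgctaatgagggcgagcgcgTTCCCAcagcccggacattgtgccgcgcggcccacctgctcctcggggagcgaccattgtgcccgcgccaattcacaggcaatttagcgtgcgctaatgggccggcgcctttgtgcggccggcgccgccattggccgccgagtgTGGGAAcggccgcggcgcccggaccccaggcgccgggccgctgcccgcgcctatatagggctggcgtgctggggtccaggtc

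Of the 8 genes, 6 had a window in the table, and 1 of the 6, Rbpj, held the core, against 28.3% of all 27025 genes with a window. Hes1 and Cd1d1 had no entry. The core stood at positions -149 and -65 from the first Rbpj start, and Dtx1 had no match in its window. Of 11 other Notch targets 7 had a window, and 4 of these held the core: Hes5, Hes7, Hey2 and Cdkn1a. The longer form was in 3 of the 7, Hes5, Hes7 and Hey2, against 7.25% of all genes, and Hes5 held it at both of its core matches. The CArG box, the element bound by SRF, was in 0 of the 6 member genes, in 1 of the 7 other targets and in 1.81% of all genes. That target was Hes5, with the box starting at position -33 in the window printed above, where it is not capitalised. A match is a description of letters in this window and not a measured site.

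The receptors differed in how clearly they were detected. Notch2, the receptor used by marginal zone B cells, gave 905 in replicate 1 and 1290 in replicate 2 by probe set 1455556_at, a mean of 1098 ± 272 (SD, n = 2). Both values were far above the floors, 5.91 times the floor of replicate 1 and 13.8 times that of replicate 2. Its other probe set, 1451889_at, gave 80.0 and 49.8 and was not detected in either sample. Notch1, the receptor that directs T cell development, gave 164 and 207 by 1418634_at, a mean of 185 ± 30.3 (SD, n = 2). In replicate 1 this was only 1.07 times the floor, and in replicate 2 it was 2.20 times the floor. Its second probe set, 1418633_at, was not detected in either sample with 37.9 and 22.9. Since each probe set has its own affinity, levels are not ranked between genes.

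T cells also express Notch1. Of 10 measured T cell markers 0 were detected in both samples, and 1 in replicate 1 only, against 32.1% and 10% of all genes. The sum over the brightest probe set of each was 717 in replicate 1 and 264 in replicate 2. The same sum over the 62 organ-restricted genes behind the floor was 5430 and 2796.5, so no share of T cells is read from it. The receptor gene Cd3e gave 31.1 and 16.1, and Cd3d 25 and 8.6, while Lat, an adaptor of the T cell receptor, gave 230.1 and 7.8 and was the gene detected in replicate 1. B cell identity genes were detected in both samples in 10 of 11 cases, against 32.1% of all genes. The other was Pax5, a factor of B cell commitment, with 21.5 and 15.6. By the brightest probe set 2 of the 10 were over 2-fold higher in replicate 2 and 2 in replicate 1, where 14.5% and 11.2% of all genes were. Cd79a, which encodes a chain of the B cell receptor, differed most, with 2931 and 192.

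Adam10, the protease of the outer cut, was measured by 3 probe sets, of which 1 was detected. Probe set 1428103_at gave 162 in replicate 1 and 362 in replicate 2, or 262 ± 141 (SD, n = 2), detected in both, in replicate 1 by a factor of 1.06. The other 2 were not detected in either sample, 1450105_at with 144 and 65.5 and 1450104_at with 11.8 and 5.6. The first was 2.23-fold higher in replicate 2. No direction is read from the others, which lay below the floor.

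The nuclear partners each had 1 of 2 probe sets detected in both samples. Rbpj, which binds DNA and represses or activates depending on Notch, gave 229.6 and 169.8 by 1448957_at, or 199.7 ± 42.3 (SD, n = 2), detected in both samples. Its second probe set, 1418114_at, gave 67.4 and 107 and was detected in replicate 2 only. Maml1, the Mastermind-like coactivator, differed least of the 8 genes as deposited by its brightest probe set, with 259 and 256 by 1426769_s_at, a mean of 257 ± 2.40 (SD, n = 2). A probe set ending in _s_at can match transcripts of more than 1 gene. The other Maml1 probe set, 1452188_at, gave 49.3 and 55.2, not detected in either sample.

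The genes switched on by Notch were both detected. Dtx1, a ubiquitin ligase of the Deltex family that is induced by Notch in B cells, gave 698 and 1088 by its only probe set, 1425822_a_at, or 893 ± 276 (SD, n = 2). The ending _a_at marks a probe set that matches several transcripts of the gene. Hes1, a basic helix-loop-helix repressor and direct Notch target, gave 309 and 154 by its only probe set, 1418102_at, or 231 ± 110 (SD, n = 2). Hes1 was thus higher in replicate 1 and Dtx1 higher in replicate 2. In replicate 2 Hes1 stood at 1.64 times the floor and Dtx1 at 11.6 times.

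Cd1d1, which encodes the lipid-presenting molecule that marks marginal zone B cells, gave 305 and 280 by 1449131_s_at, or 292 ± 17.6 (SD, n = 2), detected in both samples. By 1449130_at it gave 134 and 326, detected in replicate 2 only. Its close relative Cd1d2, which may share probes with it, had a probe set of its own with 8.2 and 75.0, not detected in either sample.

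**Figure D1:**
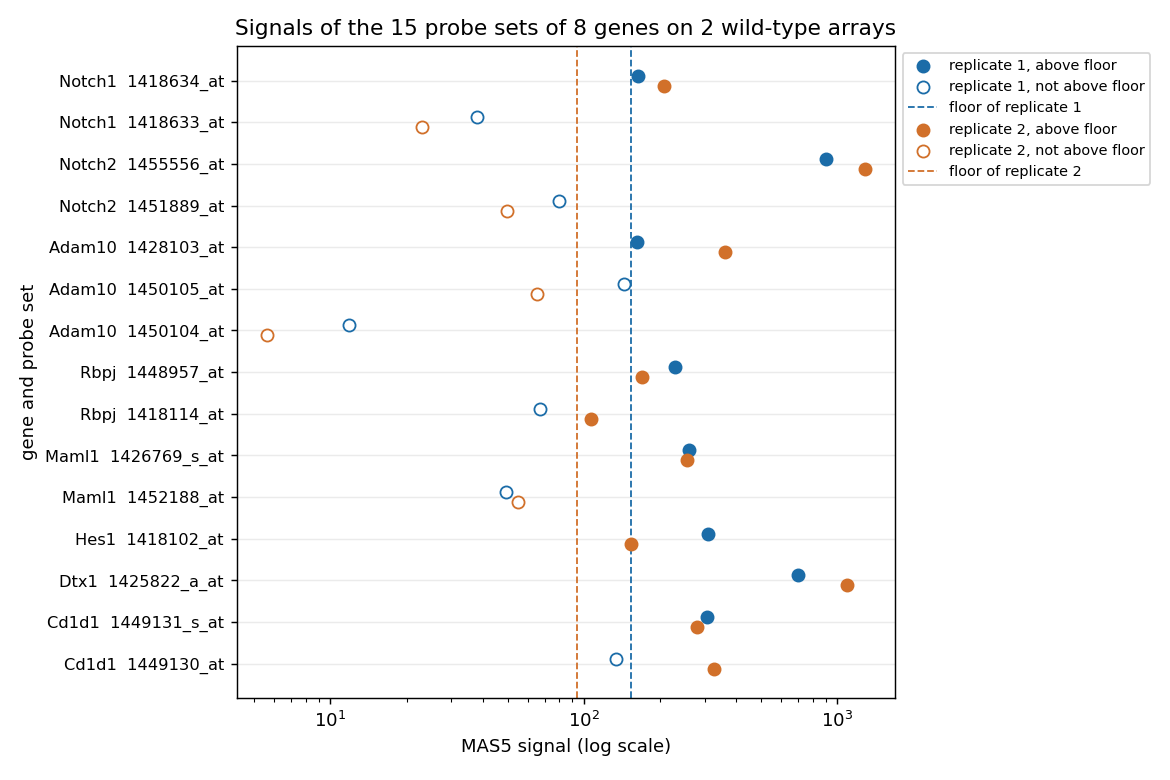
MAS5 signal on a log axis of each of the 15 probe sets, with replicate 1 in blue and replicate 2 in orange, filled where detected, and dashed lines at the floors of 153 and 93.8. Notch2 by 1455556_at and Dtx1 lie farthest right in both samples, and 5 probe sets are open on both.

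In all, 8 of the 15 probe sets (53.3%) were detected in both samples, where 26.1% of all probe sets were. A further 2 were detected in replicate 2 only, 0 in replicate 1 only and 5 on neither. By gene it was 8 of 8, against 32.1% of all genes. Of the 6 genes with 2 or more probe sets, all 6 had another probe set that was not detected in both samples, as did 78.5% of all genes with 2 or more probe sets of which at least 1 was. The members were chosen with these signals known, so the counts describe them and support nothing further. With the floor at the 95th percentile of the organ-restricted probe sets, 5 genes were left, without Notch1, Rbpj and Adam10, against 20.1% of all genes. When the probe sets of a gene were averaged, 4 were left, Notch2, Dtx1, Hes1 and Cd1d1, against 22.5% of all genes.

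Between the arrays, 6 of the 8 probe sets detected in both lay within 2-fold. Hes1 was 2.01-fold higher in replicate 1, and Adam10 by 1428103_at 2.23-fold higher in replicate 2. Among all 5901 probe sets detected in both samples, 11.9% were over 2-fold higher in replicate 1 and 14.2% in replicate 2, 26.1% in all. The log2 difference, replicate 2 minus replicate 1, was 0.51 for Notch2, 0.64 for Dtx1, 0.34 for Notch1, -0.02 for Maml1, -0.12 for Cd1d1 and -0.44 for Rbpj. These 6 were smaller than the SD of such a difference over all probe sets detected in both, 0.92, and those of Hes1 (-1.0) and Adam10 (1.16) were larger. The median over the 8 was 0.16, against -0.0025 over all probe sets detected in both.

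**Figure D2:**
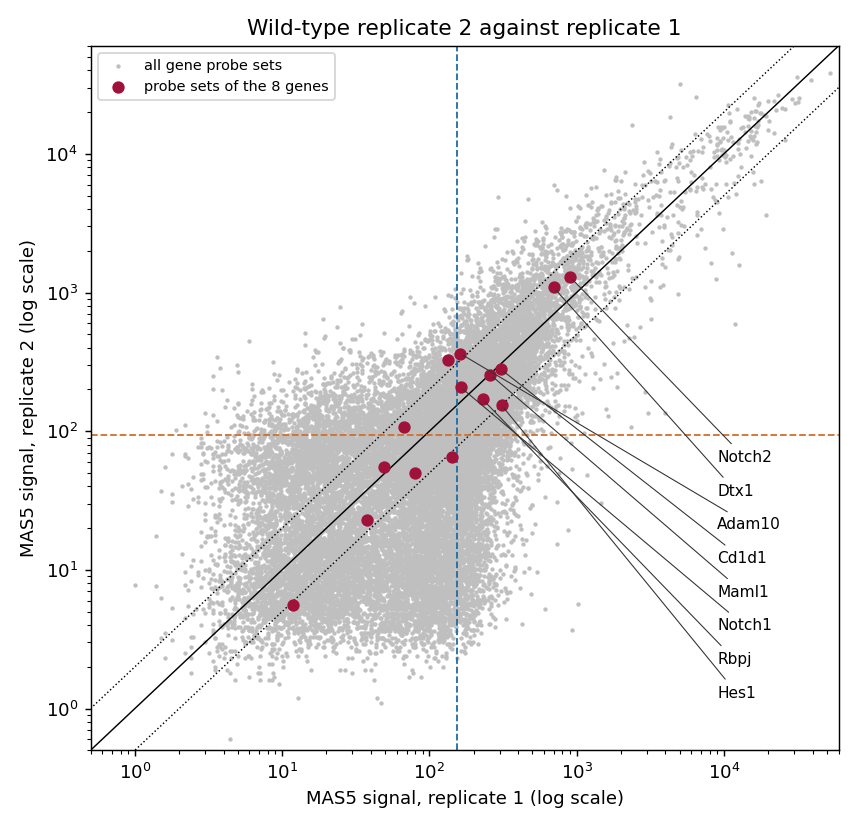
Signal in replicate 2 against replicate 1, both on log axes, of all gene probe sets (grey) and the 15 of the 8 genes (red), with equality (solid), 2-fold lines (dotted) and the floors (dashed); names mark the 8 probe sets detected in both. Adam10 lies past the upper 2-fold line and Hes1 at the lower, by 2.23-fold and 2.01-fold.

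These directions depended on how the arrays were scaled. Quantile normalization, which gives both arrays the same distribution, left Notch2 at -0.09 and Dtx1 at 0.03, and Hes1 at -0.88, within 2-fold. Centring each array on its median moved every difference up by 0.63, so that Notch2 (1.14), Dtx1 (1.27) and Adam10 (1.79) were over 2-fold higher in replicate 2, Hes1 was at -0.37, and Rbpj, Maml1 and Cd1d1 turned to 0.20, 0.61 and 0.51. Against that shift the median over all probe sets detected in both samples was 0.63. Of these 5901 probe sets, 836 were over 2-fold higher in replicate 2 and 705 in replicate 1 as deposited, 584 and 642 after quantile normalization, and 2054 and 159 after median centring. Only Adam10 by 1428103_at, of the 8 probe sets detected in both, was over 2-fold higher on the same array under all 3 scalings. Notch2 and Dtx1 kept nearly the same place among the probe sets of each array. Notch2 by 1455556_at was brighter than 97.2% of probe sets in replicate 1 and 97.0% in replicate 2, and Dtx1 than 96.2% and 96.3%. Hes1 moved from 86.8% down to 73.2%, while Adam10 by 1428103_at moved up from 67.0% to 88.3% and Notch1 by 1418634_at from 67.4% to 79.5%.

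Of the 7 other probe sets of the members, 5 were detected in neither sample and 2 in replicate 2 only, so their differences between the arrays are not read.

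**Figure D3:**
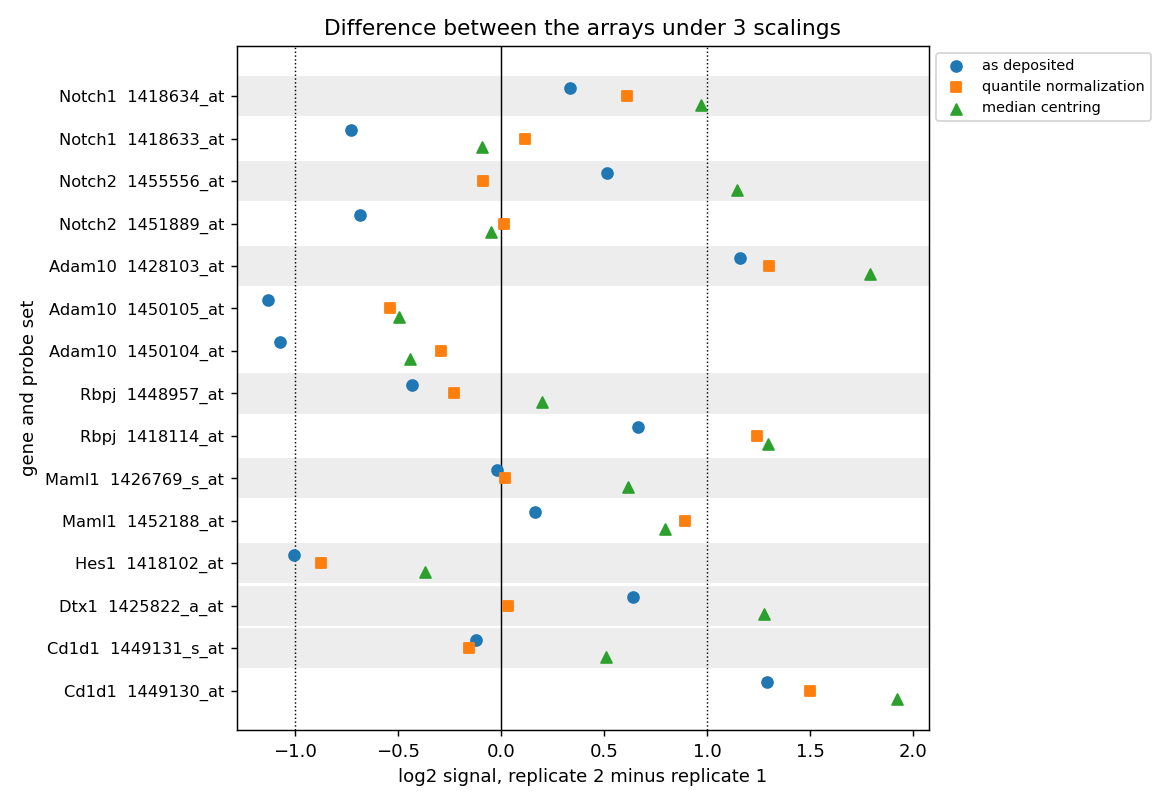
Log2 signal of replicate 2 minus replicate 1 of each of the 15 probe sets as deposited (circles), after quantile normalization (squares) and after median centring (triangles), with shaded rows for probe sets detected in both samples and dotted lines at 2-fold. Hes1 runs from -1.0 to -0.37 and Adam10 by 1428103_at from 1.16 to 1.79 across the scalings.

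The other genes of the Notch pathway were taken from a list of 66 ordered by role, of which 58 were measured. In both samples 20 of the 58 were detected, or 34.5%, close to the 32.1% of all genes. In replicate 1 only there were 5, against 10% of all genes, and in replicate 2 only 11, against 13.5%. With the floor at the 95th percentile 9 of the 58 were left, against 20.1% of all genes. Of the 20 genes, by the brightest probe set, 2 were over 2-fold higher in replicate 2 and 5 in replicate 1, where 14.5% and 11.2% of all genes were.

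The remaining receptors and the ligands were not detected in both samples. Notch3 gave 144 and 46.6 by its brightest probe set and Notch4 148 and 71.2, neither detected in either sample. Of the 5 ligands 0 were detected in both samples and 2 in replicate 1 only, against 32.1% and 10% of all genes. The 2 were Dll1 with 321 and 26.5, and Dll3 with 207 and 13.6. Dll4, Jag1 and Jag2 were not detected in either sample, and the brightest probe set of Jag2 gave 118 and 66.0. Markers of stroma and endothelium, where splenic Notch ligands are known to be made, were detected in both samples in 0 of 10 cases, against 32.1% of all genes. In replicate 1 only 1 of them was detected, Pdgfra with 159 and 24.2, and in replicate 2 only 1, Col1a2 with 140.1 and 99.9. This stands against 10% and 13.5% of all genes. Another 1, Cxcl13, was detected on each array by different probe sets. The summed signal of these markers was 1007 in replicate 1 and 438 in replicate 2. That of the organ-restricted genes was 5430 and 2796.5, so no share of stroma is read from it.

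Among glycosyltransferases, which modify the receptors, 3 of 6 were detected in both samples, where 32.1% of all genes were. These were Mfng, a Fringe enzyme that tunes the response to ligands, at 336 ± 8.77, Rfng at 250.4 ± 131 and Pofut2, an O-fucosyltransferase, at 203 ± 10.6 (SD, n = 2). Rfng was 2.17-fold higher in replicate 1. Lfng, the Fringe that acts with Mfng in marginal zone B cells, gave 137 and 16.2 by its brightest probe set, not detected. Pofut1, which adds the fucose that Fringe extends, had a probe set with 20.3 and 120.5, detected in replicate 2 only.

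Of 6 measured proteases of receptor cleavage 4 were detected in both samples, against 32.1% of all genes. Psenen, a small subunit of gamma-secretase, gave 1056 and 1826, or 1441 ± 545 (SD, n = 2). Psen2, a catalytic subunit, gave 249 and 477, Aph1a, another subunit, 184 and 305 by its brightest probe set, and Furin, which trims the receptor on its way to the surface, 193 and 208. All 4 differed by under 2-fold. Aph1a had 2 more probe sets detected in both samples, both lower in replicate 2, with 165 and 126, and 213 and 126.5. Ncstn, the subunit that receives the substrate, was detected in replicate 1 only with 240.2 and 68.1. Adam17, a relative of Adam10, was detected in replicate 1 by 1 probe set, 245 and 50.7, and in replicate 2 by others, the brightest with 108 and 529.

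In the nucleus, 2 of 5 coactivators and 3 of 10 corepressors were detected in both samples, near the 32.1% of all genes. Snw1, a bridging factor of the RBPJ complex, gave 359 and 812 and was 2.26-fold higher in replicate 2 by its brightest probe set, while its other gave 170.5 and 192. Kat2a, a histone acetyltransferase, gave 206 and 168 by its probe set detected in both. The corepressors were Ctbp1 at 602 ± 68.0, Hdac1, a histone deacetylase, at 545 ± 165 and Tle3 at 304 ± 15.9 (SD, n = 2). Spen, which competes with Notch for RBPJ and holds back the marginal zone fate, gave 125 in replicate 1, below the floor, and 116 in replicate 2, above it.

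Regulators of receptor turnover and trafficking were detected in both samples in 6 of 13 cases, against 32.1% of all genes. Numb, an inhibitor of Notch, gave 239 ± 13.4 and Fbxw7, which marks the intracellular domain for destruction, 232 ± 9.90 (SD, n = 2), and both lay within 2-fold. Taok3, a kinase known to equip marginal zone precursors to receive the Notch2 signal, gave 243 and 524 by its brightest probe set, 2.16-fold higher in replicate 2. Another Taok3 probe set gave 202 and 382, and the remaining one 219.9 and 97.7, 2.25-fold higher in replicate 1. Mib2, Dtx3 and Nle1 were 2.30-fold, 2.35-fold and 2.33-fold higher in replicate 1. Their signals in replicate 2 were 117, 101.5 and 97.8, close to the floor of 93.8. Mib1, the ligase that readies ligands in the sending cell, gave 138 and 51.2, not detected.

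Targets of Notch other than Hes1 and Dtx1 were detected in both samples in 2 of 11 cases, against 32.1% of all genes. Bcl2, a survival gene, gave 183 and 347. Ccnd1, a G1 cyclin, gave 292 and 110.1 by its brightest probe set, 2.65-fold higher in replicate 1 and close to the floor of 93.8 in replicate 2. Other Ccnd1 probe sets gave 15.4 and 26.7, and 7.5 and 21, detected in neither sample. Hes5, whose printed window holds the core 2 times, gave 79.3 and 85.4, and Nrarp, a feedback inhibitor of Notch, 77.8 and 80.8 by their brightest probe sets, not detected in either sample. Hey1 and Hey2 were not detected either, with 72.1 and 12.6, and 28.1 and 2.3. Detected in replicate 1 only were Heyl, with 271 and 43.5 by 1419302_at, and Myc, a growth regulator, with 661 and 77.3. Hes6 was detected in replicate 2 only, with 96.1 and 145.3 by its brightest probe set.

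**Figure D4:**
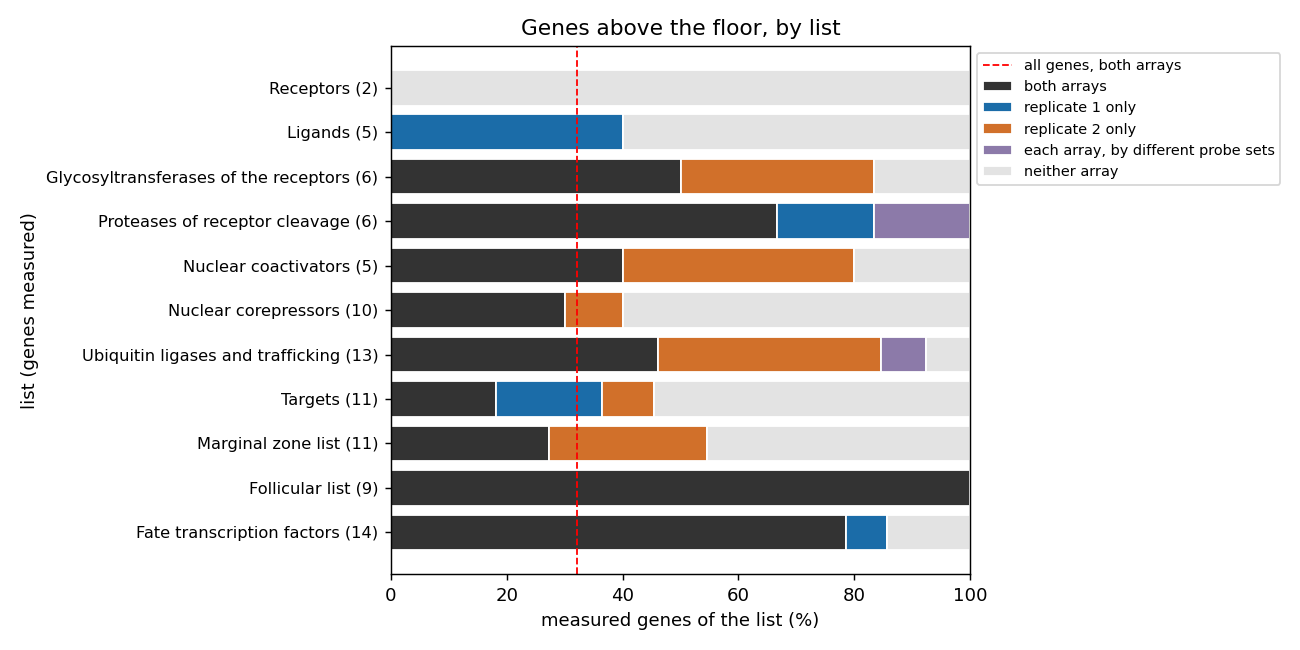
Share of the measured genes of each list (number measured in brackets) detected in both samples, in replicate 1 only, in replicate 2 only, on each array by different probe sets, or on neither; the dashed line is the 32.1% of all genes detected in both. The follicular bar is full, 9 of 9, and the marginal zone bar reaches 3 of 11.

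Genes listed for the fates that Notch2 divides were counted in the same way. Marginal zone genes were detected in both samples in 3 of 11 cases (27.3%) and follicular genes in 9 of 9, against 32.1% of all genes. The difference between the lists, and the part of the sort for IgM and IgD in it, were not tested. Nor was it tested whether each listed gene is particular to 1 fate, and Cr2 is also on the B cell identity list. Without replicate 1 the marginal zone count was 6, since Myof, Ebi3 and Dusp16 were detected in replicate 2 only, and the follicular count stayed at 9. Of all genes 46.9% were detected without replicate 1. Cr2, the complement receptor that marginal zone B cells carry at high density, gave 940 and 2275, 2.42-fold higher in replicate 2. Tm6sf1 gave 556 ± 84.3 and Pik3r4 370.4 ± 43.3 (SD, n = 2). Cd9, a tetraspanin of marginal zone B cells, gave 7.8 and 19.8, and S1pr3, a sphingosine phosphate receptor of these cells, 36.6 and 24.4, neither gene detected. Of the follicular genes, Fcer2a, which encodes CD23, a marker that marginal zone B cells lack, gave 1081 and 978, or 1029 ± 73.0 (SD, n = 2) by its brightest probe set. Its other probe set gave 315.5 and 9.4 and was detected in replicate 1 only. By their brightest probe sets 3 of the 9 follicular genes were over 2-fold higher in replicate 2 and 2 in replicate 1. Bach2, a repressor of plasma cell fate, was 3.49-fold higher in replicate 2, with 465 and 1626, and Ccr7, a homing receptor of the follicle border, 5.50-fold higher in replicate 1, with 839 and 152.5.

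Markers of other cells that the sort could hold were detected to different extents. Each count below stands against the 32.1% of all genes detected in both samples. B1 cell markers, from another subset that a sort for IgM may hold, were detected in both samples in 0 of 4 cases, and so were 0 of 6 dendritic cell, 0 of 5 NK cell and 0 of 5 erythroid markers. In replicate 1 only, 1 B1 and 2 erythroid markers were detected, where 10% of all genes were. In replicate 2 only, 2 dendritic cell markers and 1 NK cell marker were, where 13.5% of all genes were. Neutrophil genes were detected in both samples in 3 of 7 cases: S100a8 with 164 and 449.9, S100a9 with 205 and 229.9, and Ngp with 327 and 187. The granule genes Elane, with 16.5 and 4.9, and Mpo, with 19.9 and 59.1, were not detected, nor was Camp, with 34.6 and 8.9. Ltf, with 203.2 and 8.5, was detected in replicate 1 only. Monocyte and macrophage genes were detected in 2 of 9 cases, Lyz2 with 291 and 178 and Csf1r with 286 and 249 by its brightest probe set. Other Csf1r probe sets gave 23.2 and 96.7, detected in replicate 2 only, and 208.6 and 15.2, detected in replicate 1 only. Cd68 gave 6.7 and 25.5 and Itgam 29.2 and 48.8, neither gene detected. The summed signal was 971 in replicate 1 and 948 in replicate 2 for neutrophils, and 1043 and 760.5 for monocytes and macrophages. No share of cells is read from these sums, since that of the organ-restricted genes was 5430 and 2796.5. Plasma cell genes were detected in 2 of 5 cases, Irf4 with 1270.4 and 348 and Xbp1 with 569 and 1539.5 by its brightest probe set. Other Xbp1 probe sets detected in both samples gave 270.5 and 400.9, 176.6 and 140.7, and 467.3 and 244.6. Prdm1 gave 222.3 and 42.2, detected in replicate 1 only, and Jchain 94.7 and 453.5, detected in replicate 2 only. Sdc1, which encodes the plasma cell marker CD138, gave 116 and 52.4 by its brightest probe set, not detected. Of the remaining lists, immature and transitional B cell genes were detected in both samples in 2 of 8 cases, germinal centre genes in 1 of 4 and platelet genes in 1 of 5. The part of these cells in the signals of the Notch genes was not tested.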

How the data were processed

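RNA of 2 wild-type samples was hybridised to 1 array each. Biotinylated cRNA was made from 6 µg total RNA per the labels' protocols, and the deposited signal intensities were MAS5 values, per the submitters' processing notes, with version and parameters not given in the sources used here. The table held 22690 probe sets, 64 of them controls, which were left out. Genes were named from the platform annotation by probe sets with a single symbol (20380). A gene was represented by its brightest probe set by mean log2 signal, and was detected in both samples if at least 1 probe set was. All differences are replicate 2 minus replicate 1 in log2 of the deposited signal. No test was made, and SDs cover the spread between these samples, which may be technical. Every member probe set is named. Of the other pathway genes, up to 4 per role above the floor with the highest mean, all receptors and ligands, and those over 2-fold apart are named, and further genes not detected were chosen after their values were seen. The members and lists were chosen with earlier results of these data known. Alternatives were another floor (95th percentile, array median), quantile normalization, median centring, a pseudocount of 32, dropping the _x_at class, averaging probe sets and leaving out either array. Promoter windows are RefSeq's of GRCm38.p6. The calculations used Python 3.11.15 with numpy 2.4.6, pandas 2.3.3 and scipy 1.17.1. The fold threshold and the quantile step were run on simulated data with far less noise than the spread between these arrays. That run checks the code and not how reliable a 2-fold difference is here.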

Additional observations from a re-analysis of the deposited data

How the results depend on the processing

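With 2 arrays of 1 group nothing could be tested, and signal over background set what could be read. With the floor at the 95th percentile, 5 member probe sets and 5 members were detected in both samples, 1 of those probe sets was over 2-fold apart, and 9 other pathway genes were detected. Of all genes 20.1% were detected at that floor. Quantile normalization and log2(signal + 32) each left 1 member probe set over 2-fold apart, and median centring 3, in place of 2. Averaging a gene's probe sets left 4 members detected and changed the sign of 6 of the 8 log2 differences: Adam10 from 1.16 to -0.35, Cd1d1 from -0.12 to 0.58, Notch1 from 0.34 to -0.20, Notch2 from 0.51 to -0.09, Rbpj from -0.44 to 0.11 and Maml1 from -0.02 to 0.07. These averages include the 7 other probe sets, 5 of them detected in neither sample. With either array left out, 27 to 33 other pathway genes, 3 to 6 marginal zone genes, 9 follicular genes, 8 members and 8 to 10 member probe sets were detected in the remaining sample. Without replicate 1 the pathway count was 33 and the marginal zone count 6. Fewer conditions have to be met with 1 array, and 46.9% of all genes were detected without replicate 1 and 43.4% without replicate 2. Of 106 recomputed values, 95 stayed within these limits: 1.5 times for counts, and for a log2 difference the pooled SD of 0.65. Part of this was fixed in advance. Another floor, or dropping the _x_at class, to which no member probe set belongs, cannot change the 8 log2 differences. Median centring moves each by 0.63, under the limit, although 3 of them changed sign. It also rescales the floor with the array, so its counts of detected genes cannot move. For counts over single arrays no fold can be given, and averages over probe sets give no count of probe sets.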

Other observations

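Transcription factors of the choice between marginal zone and follicular fate were detected in both samples in 11 of 14 cases, against 32.1% of all genes. Mef2c, a factor of B cell survival and activation, gave 582 in replicate 1 and 2125 in replicate 2 by 1424852_at. Its other probe sets detected in both samples gave 545 and 1308, 421 and 462.5, and 243 and 119. Irf8, which restrains the marginal zone pool, gave 2032 and 3005 by 1416714_at. Id3, an inhibitor of E proteins, gave 179.5 and 443, while Tcf3, the E protein gene E2A, gave 172 and 249 by its brightest probe set. Klf2, which holds cells in the follicular state, was 2.54-fold higher in replicate 1, with 6552 and 2579. Relb, an NF-kB subunit, gave 240.3 and 230.4. Id2, the inhibitor of E proteins of other lymphocytes, gave 72.8 and 66.3 by its brightest probe set, not detected in either sample. By 1422537_a_at it gave 159 and 6.3, detected in replicate 1 only, close to the floor of 153. By 1453596_at it gave 98.8 and 3.6, not detected. Pax5 and Bhlhe41 were not detected in either sample.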
